A study of Bos taurus and Sus scrofa with 6 samples.

Results

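The transcription factors that the somatic cells of the gonad are known for were followed through 3 cattle and 3 pig testes, namely SOX9, SOX8, WT1, NR5A1, GATA4, GATA6, LHX9, TCF21 and NR2F2. Members were taken by gene symbol, and 8 of the 9 were listed among the 19994 genes of cattle and all 9 among the 22694 genes of pig. SOX9 was not listed under that symbol in cattle and was not analysed there. The cattle were Holstein bulls aged 4.5 months and the pigs were of mixed breed and aged 3 months, all untreated and castrated before puberty. Each testis was digested with trypsin and collagenase, and 1 droplet library was made from each animal. In such a library every RNA molecule caught carries a unique molecular identifier (UMI), and the level of a gene is given here as UMIs per 1000000 UMIs of a group of cells (CPM).

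The somatic compartment of the testis holds the Sertoli cells, which line the tubules and nurse the germ cells, the steroid-producing Leydig cells between the tubules, the contractile peritubular myoid cells and the stromal fibroblasts. WT1, GATA4, LHX9 and NR5A1 act early in the gonadal ridge, SOX9 and SOX8 carry the Sertoli programme, and TCF21 and NR2F2 are known from mesenchymal and interstitial progenitors. NR5A1, also called SF-1, switches on the genes of steroid synthesis.

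The library totals of cattle lay between 5805223 and 53325608 UMIs, those of pig between 6245189 and 40099873, and animal 1 was the shallowest of each species. The median depth per cell was 789 UMIs in cattle 1, 1685 in cattle 2 and 4461 in cattle 3, against 890, 3856 and 5870 for the pigs. Cells were named by markers that include none of the members. Sertoli-like cells numbered 506, 2369 and 1327 in cattle and 1160, 2263 and 210 in pig, and Leydig-like cells 1039, 481 and 389 in cattle and 899, 84 and 88 in pig. Clusters with myoid markers also carried stromal markers, so stromal and myoid cells were joined as stromal/myoid-like. They numbered 1340, 3804 and 2920 in cattle and 111, 370 and 231 in pig. The rule for a cell set a floor of 460, 972 and 2644 UMIs in cattle 1, 2 and 3. In pig 1, 2 and 3 that floor was 696, 2444 and 3458 UMIs. With barcodes of at least 500 UMIs taken as cells, Leydig-like cells of pig numbered 2230, 1378 and 785. The stromal/myoid-like cells of pig then numbered 203, 1725 and 2701, so the small pig classes depend on this floor. Some stromal/myoid-like clusters in cattle carried stromal markers at 6739 to 11392 CPM but myoid markers at only 518 to 1006 CPM. The lower end of both ranges is that of cattle 1, from 11 cells with 5787 UMIs in all. Summed Sertoli markers were at 3557 to 6503 CPM in cattle Sertoli-like cells and 3745 to 4494 CPM in those of pig. Summed Leydig markers were at 93330 to 146449 CPM and 37488 to 45632 CPM in the Leydig-like cells of cattle and pig. Stromal markers reached 7369 to 12330 CPM and 9050 to 22273 CPM in the stromal/myoid-like cells. Most clusters held cells of mainly 1 animal, so that different clusters make up a class in different animals. The stromal/myoid-like cells of pig 1 also held up to 6662 CPM of Leydig markers. Most of them came from clusters that hold markers of another class or lead with stress genes. Without those clusters 13 of the 111 cells of pig 1 were left, with 12280 of 101322 UMIs. Sertoli markers were at 263 to 1441 CPM in the stromal/myoid-like cells of pig and 192 to 344 CPM in those of cattle. How far such carried-over RNA or cells enter the stromal/myoid-like levels of SOX9, WT1 and GATA6 in pig was not tested. Any 2 libraries shared 9 to 71 cell barcodes, at most 1.32% of the smaller library.

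Of the members tested, 3 of 7 in cattle and 6 of 8 in pig differed between Sertoli-like and Leydig-like cells (edgeR quasi-likelihood test on UMI sums per animal, adjusted p under 0.05), against 22.4% and 16.9% of all genes. Between Sertoli-like and stromal/myoid-like cells 6 of 7 in cattle and 7 of 8 in pig differed, against 31.5% and 11.9% of all genes. Between Leydig-like and stromal/myoid-like cells 3 of 7 and 3 of 8 differed, against 15.8% and 11% of all genes. SOX8 had under 10 counts over the sums of these classes in each species and was not tested. With a replicate block for the animal 5 of 7 cattle members passed in each comparison with Leydig-like cells, where the share of all genes rose to 38.9% against Sertoli-like and 35.3% against stromal/myoid-like cells. Without cattle 2 or 3, 1 of 7 passed for Sertoli-like against Leydig-like cells, with 8.24% and 9.43% of all genes, and 3 of 7 for Sertoli-like against stromal/myoid-like cells, with 13% and 14.3%. In pig the last comparison gave 4 of 8 members and 5.54% of genes without pig 3. It gave 4 of 8 members with library size alone (11.7% of genes), with no doublets left out (10.4%) and without the clusters that hold markers of another class or lead with stress genes (11.5%), and 3 of 8 at clustering resolution 2 (11.2%). Without those clusters and at resolution 2, pig 1 had 13 stromal/myoid-like cells and its sum was dropped. The median log2 fold change of the members was -0.92 in cattle and 0.49 in pig for Sertoli-like against Leydig-like cells, where the medians of all genes were 0.08 and 0.14. For Sertoli-like against stromal/myoid-like cells it was 0.69 and 0.94, with -0.00 and 0.06 over all genes, and for Leydig-like against stromal/myoid-like cells -0.12 and -0.66, with -0.12 and -0.17 over all genes.

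**Figure D1:**
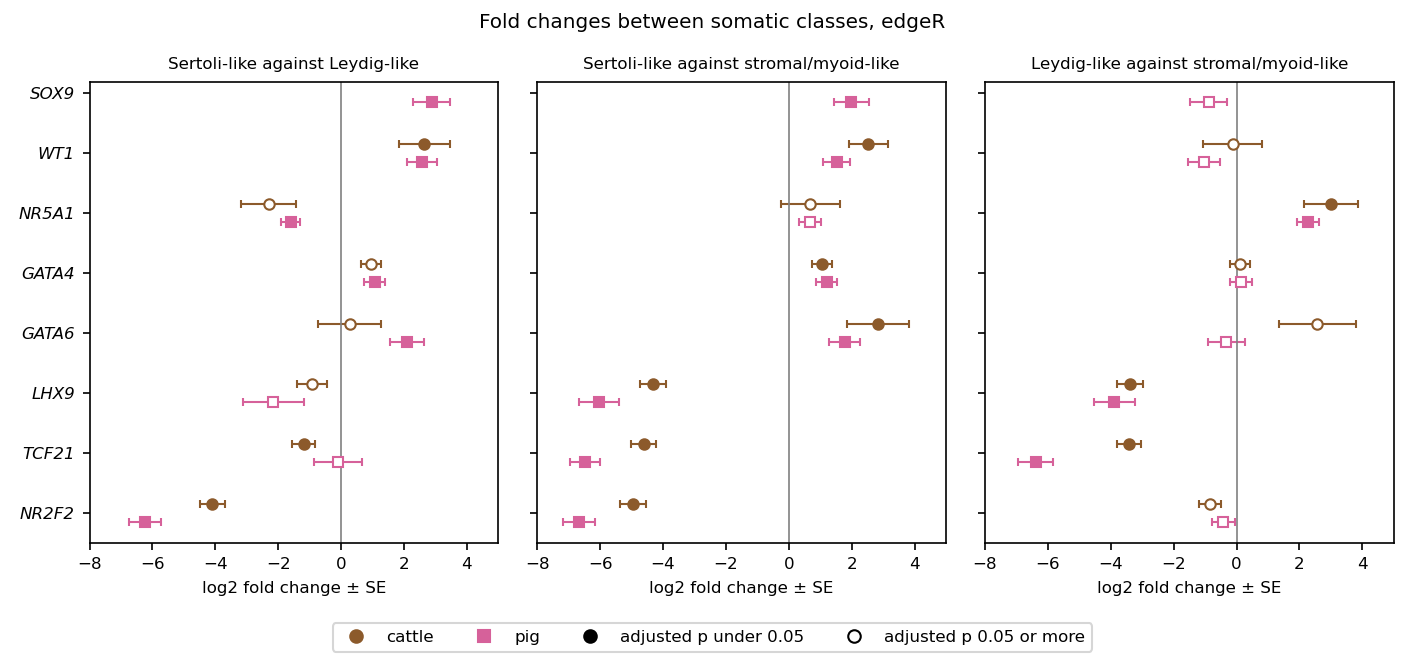
The log2 fold change of every tested member is drawn for the comparisons between classes in cattle and pig, with bars for the standard error and filled points where the adjusted p is under 0.05. NR2F2 lies far on the lower side for Sertoli-like cells in both species, and TCF21 and LHX9 lie far on the lower side in both comparisons with stromal/myoid-like cells.

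SOX9, the factor that sets the Sertoli fate in the fetal testis and drives the anti-Mullerian hormone gene, was measured in pig alone. It was at 274, 392 and 312 CPM in the Sertoli-like cells of pig 1, 2 and 3, with a mean of 326 ± 60.2 CPM (SD, n = 3). Leydig-like cells held 67.1, 67.4 and 10.3 CPM and stromal/myoid-like cells 98.7, 162 and 32.3 CPM. All 3 Sertoli-like sums lay above all sums of the other classes, and in each of those classes pig 2 had the highest value and pig 3 the lowest. The log2 fold change was 2.88 ± 0.58 (SE) against Leydig-like cells (adjusted p = 0.00331) and 1.99 ± 0.55 against stromal/myoid-like cells (adjusted p = 0.0279). The first call was lost with barcodes of at least 500 UMIs taken as cells, where the log2 fold change was 2.09, and the second without pig 1, at 2.06, at clustering resolution 2, at 1.98, with no doublets left out, at 1.83, and without the clusters of mixed markers or stress genes, at 2.01. Germ-like cells, which should lack the gene, held 51.1, 106 and 18.6 CPM in the same order of animals, and a cluster of 340 cells in that class held 279 CPM. When every cell was thinned to 500 UMIs, 12.8%, 18.03% and 14.8% of Sertoli-like cells and 0.917%, 2.75% and 0.426% of macrophage-like cells held a SOX9 UMI. Before thinning the mean shares were 59.0% and 8.85%.

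SOX8, a close relative that can stand in for SOX9 in the Sertoli cell, was nearly undetected. Cattle gave 1 UMI in all 3 classes together, in the stromal/myoid-like cells of cattle 3. Pig gave 8 UMIs, 4 each in the stromal/myoid-like cells of pig 2 and pig 3, at 2.97 and 3.92 CPM. The Sertoli-like cells held 0 UMIs in both species, which allows up to 0.185 CPM in cattle and 0.246 CPM in pig, and 0 UMIs in Leydig-like cells allow up to 0.741 and 2.07 CPM. These limits use 3 counts over the summed cells and cover counting error only.

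WT1, a zinc-finger factor needed for the gonad to form and for Sertoli cells to keep their identity, was highest in the Sertoli-like cells of the 3 classes in both species. In pig it was at 49.8, 133 and 115 CPM in Sertoli-like, 12.7, 37.5 and 12.8 CPM in Leydig-like and 39.5, 54.9 and 26.5 CPM in stromal/myoid-like cells. The Sertoli-like sums did not overlap those of Leydig-like cells but did overlap the stromal/myoid-like sums, of which that of pig 1 rested on 4 UMIs. The log2 fold change was 2.56 ± 0.48 against Leydig-like cells (adjusted p = 0.00196) and 1.52 ± 0.43 against stromal/myoid-like cells (adjusted p = 0.0297). The second call was lost without pig 2, at 1.72, and without pig 3, at 1.16. It was also lost with barcodes of at least 500 UMIs, at 1.95, at clustering resolution 2, at 1.51, with library size alone, at 1.30, with no doublets left out, at 1.44, and without the clusters of mixed markers or stress genes, at 1.51.

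In cattle WT1 was sparse, with 104 UMIs over the 9 sums. Sertoli-like cells held 9.1, 3.23 and 5.54 CPM (6, 20 and 52 UMIs), Leydig-like cells 0, 1.03 and 0.982 CPM (3 UMIs in all) and stromal/myoid-like cells 0, 0.792 and 1.33 CPM. The Sertoli-like sums lay above all others. Pooled over animals the ratio to Leydig-like cells was 6.48, with an exact 95% counting interval of 2.14 to 32.1. The fitted log2 fold changes were 2.65 ± 0.82 against Leydig-like cells (adjusted p = 0.0356) and 2.53 ± 0.61 against stromal/myoid-like cells (adjusted p = 0.00718). The call against Leydig-like cells was lost without any single animal, at 2.08, 3.15 and 3.15 without cattle 1, 2 and 3, and with DESeq2, at 2.68. That against stromal/myoid-like cells was lost without cattle 2 or 3, at 2.76 and 3.13.

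GATA4, a zinc-finger factor that works with WT1 and NR5A1 on Sertoli and steroid genes, was found in all 3 classes. In cattle it was at 57.6, 85.9 and 118 CPM in Sertoli-like, 27.8, 47.5 and 49.6 CPM in Leydig-like and 45.3, 43.1 and 53.7 CPM in stromal/myoid-like cells. In pig these were 113, 116 and 130 CPM, 77.2, 63.7 and 48.8 CPM, and 39.5, 85.3 and 48.0 CPM. In both species the Sertoli-like sums lay above all others, and the Leydig-like and stromal/myoid-like sums overlapped. The cattle fold change over stromal/myoid-like cells was 1.06 ± 0.32 on the log2 scale (adjusted p = 0.0226), and that of pig 1.2 ± 0.33 (adjusted p = 0.0266). Against Leydig-like cells it was 0.95 ± 0.33 in cattle (adjusted p = 0.0542) and 1.07 ± 0.33 in pig (adjusted p = 0.0374). With a replicate block for the animal the cattle difference from Leydig-like cells, 0.95, passed the threshold, as it did without cattle 1 at 1.03, with DESeq2 at 0.86, with genes of at least 1 count at 0.96 and with library size alone at 1.08.

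The cattle call over stromal/myoid-like cells was lost without cattle 2 or 3, at 0.98 and 0.87, and the pig call without pig 1 or 3, at 1.06 and 1.0, at clustering resolution 2, at 1.08, and with library size alone, at 0.94. The pig call over Leydig-like cells was lost without pig 1, 2 or 3, at 1.25, 1.07 and 0.78, with library size alone, at 0.90, with DESeq2, at 0.99, and with barcodes of at least 500 UMIs, at 0.65. Empty droplets of cattle, barcodes with at most 50 UMIs, held 15.8, 33.5 and 51.8 CPM of GATA4, and the part of such free RNA in the Leydig-like and stromal/myoid-like levels was not tested.

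GATA6, the relative that overlaps with GATA4 in function, gave 1443 UMIs in pig and 38 in cattle. Pig Sertoli-like cells held 43.4, 116 and 110 CPM, Leydig-like cells 20.3, 41.2 and 12.8 CPM and stromal/myoid-like cells 29.6, 49.0 and 11.8 CPM. In each animal the Sertoli-like cells held the most, though the value of pig 1 fell below the stromal/myoid-like value of pig 2. The log2 fold change was 2.1 ± 0.53 against Leydig-like cells (adjusted p = 0.013) and 1.78 ± 0.51 against stromal/myoid-like cells (adjusted p = 0.0314). The first call was lost without pig 1, at 2.26, or pig 3, at 1.59, and the second without pig 3, at 1.17. The second was also lost at clustering resolution 2, at 1.76, with library size alone, at 1.55, with no doublets left out, at 1.54, and without the clusters of mixed markers or stress genes, at 1.78.

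Cattle GATA6 levels were 0, 1.78 and 1.92 CPM in Sertoli-like, 0.96, 2.07 and 0.982 CPM in Leydig-like and 0.984, 0.475 and 0 CPM in stromal/myoid-like cells. All 3 classes overlapped. The fitted difference between Sertoli-like and stromal/myoid-like cells, 2.83 ± 0.99 on the log2 scale (adjusted p = 0.0442), set 29 UMIs against 4 and was lost without cattle 2, at 3.70, or cattle 3, at 1.31, with DESeq2, at 2.35, with library size alone, at 2.65, and without dividing clusters, at 2.75. Leydig-like cells were at 2.56 ± 1.23 against stromal/myoid-like cells (adjusted p = 0.186), a difference that passed with a replicate block for the animal at 2.83 and with barcodes of at least 500 UMIs at 2.85.

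**Figure D2:**
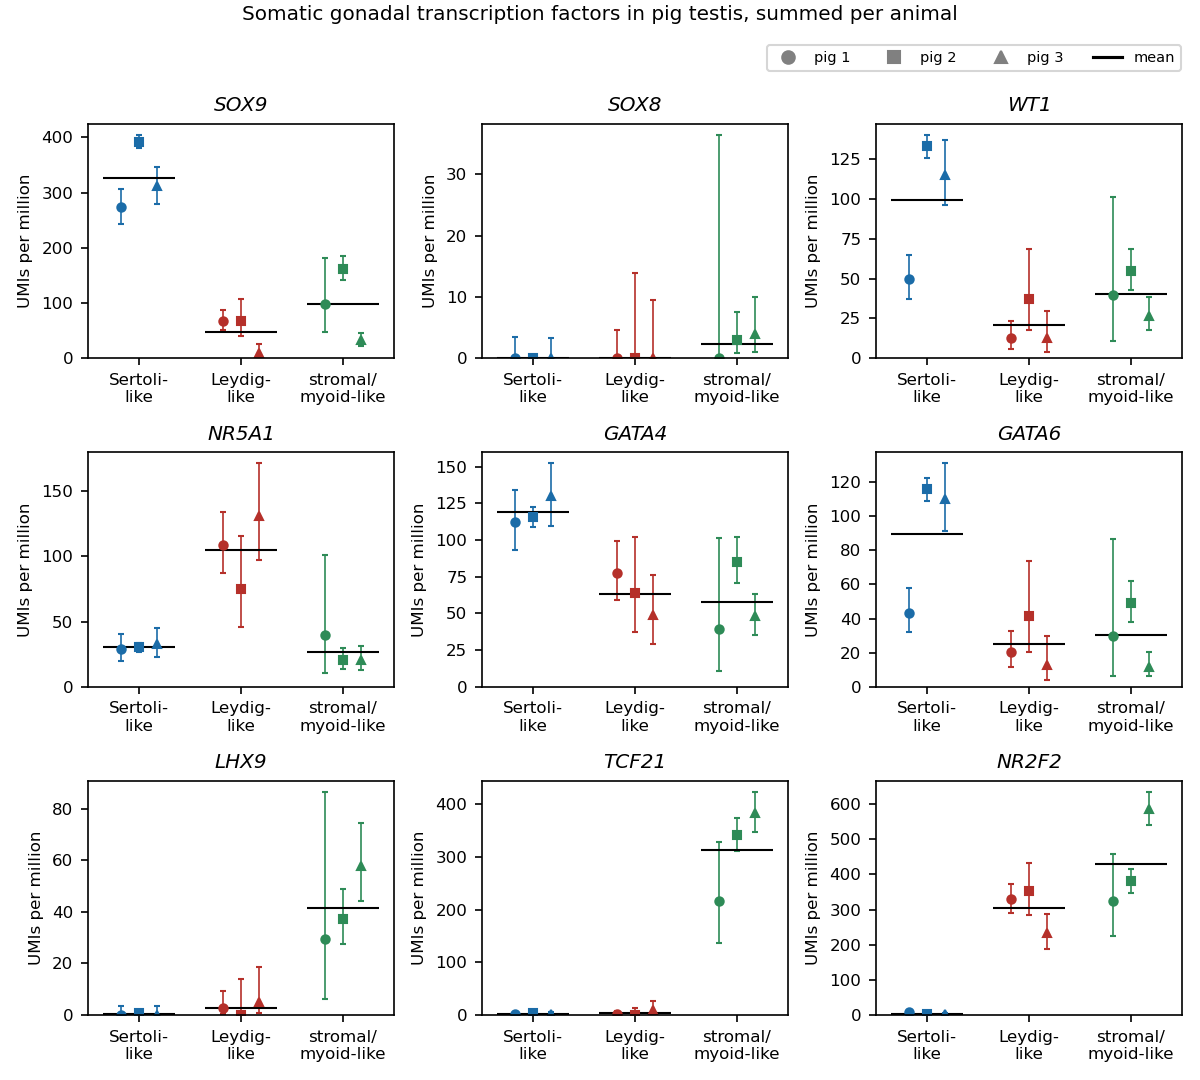
Levels of the 9 members in pig are drawn in CPM for Sertoli-like, Leydig-like and stromal/myoid-like cells. Points are animals (circle 1, square 2, triangle 3) with exact 95% Poisson counting intervals, and the line is the mean. SOX9 and GATA4 stand highest in Sertoli-like cells of every animal, NR5A1 in Leydig-like cells, and TCF21 and LHX9 in stromal/myoid-like cells.

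NR5A1, the nuclear receptor that switches on steroid synthesis, had its highest levels in the Leydig-like cells of pig, with 109, 74.9 and 131 CPM and a mean of 105 ± 28.2 CPM (SD, n = 3). Sertoli-like cells held 28.6, 30.1 and 32.5 CPM and stromal/myoid-like cells 39.5, 20.8 and 20.6 CPM. The Leydig-like sums lay above all others, and the other 2 classes overlapped. Sertoli-like cells were lower than Leydig-like cells by a log2 fold change of -1.61 ± 0.30 (adjusted p = 0.00208), and Leydig-like cells were higher than stromal/myoid-like cells by 2.28 ± 0.34 (adjusted p = 0.000707). Both calls held under every alternative tried. Sertoli-like cells against stromal/myoid-like cells gave 0.67 ± 0.34 (adjusted p = 0.252).

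In cattle NR5A1 was sparse, with 45 UMIs over the 9 sums. Leydig-like cells held 6.72, 3.1 and 3.93 CPM, Sertoli-like cells 6.07, 0.485 and 0.532 CPM and stromal/myoid-like cells 0.984, 0.317 and 0.888 CPM. Leydig-like cells lay above stromal/myoid-like cells in all animals, whereas cattle 1, with 4 UMIs in its Sertoli-like cells, brought Sertoli-like and Leydig-like cells to overlap. The difference between Leydig-like and stromal/myoid-like cells, 2.99 ± 0.86 (adjusted p = 0.0315), was lost without cattle 2, at 2.82, or cattle 3, at 3.61. Sertoli-like against Leydig-like cells gave -2.31 ± 0.89 (adjusted p = 0.0837), which passed without cattle 1, at -2.83, and with a replicate block for the animal, at -2.17.

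NR2F2, an orphan nuclear receptor also called COUP-TFII that marks interstitial progenitors and is needed for Leydig cells to mature, separated Sertoli-like cells from both other classes. In cattle it was at 6.07, 11.2 and 14.5 CPM in Sertoli-like, 104, 265 and 187 CPM in Leydig-like and 286, 421 and 498 CPM in stromal/myoid-like cells. In pig the values were 7.38, 2.79 and 1.8 CPM, 330, 352 and 234 CPM, and 326, 381 and 586 CPM. Every Sertoli-like sum lay below every other sum of its species.

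The NR2F2 log2 fold change of Sertoli-like against Leydig-like cells was -4.09 ± 0.40 in cattle (adjusted p = 2.34e-05) and -6.24 ± 0.50 in pig (adjusted p = 3.47e-06). Against stromal/myoid-like cells it was -4.95 ± 0.42 (adjusted p = 4.62e-06) and -6.66 ± 0.51 (adjusted p = 2.54e-06). These 4 calls held under every alternative tried. Leydig-like and stromal/myoid-like cells did not overlap in cattle and did in pig, and neither difference passed the test, at -0.86 ± 0.35 (adjusted p = 0.121) and -0.42 ± 0.37 (adjusted p = 0.522). The cattle difference passed without cattle 1, at -0.82, with a replicate block for the animal, at -0.87, and with library size alone, at -1.12. Thinned to 500 UMIs a cell, NR2F2 was found in 9.69% ± 4.15 of Leydig-like and 0.492% ± 0.25 of Sertoli-like cattle cells (SD, n = 3), and in 35.5% and 4.19% before thinning. In macrophage-like cells of cattle it was found in 2.16% ± 1.2 of thinned cells.

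TCF21, a basic helix-loop-helix factor of mesenchymal progenitors, was the member with the clearest gap between stromal/myoid-like cells and the others. In cattle it was at 639, 654 and 814 CPM there, against 37.9, 20.05 and 24.0 CPM in Sertoli-like and 80.6, 35.1 and 39.8 CPM in Leydig-like cells. In pig it was at 217, 342 and 384 CPM there, against 1.85, 3.79 and 1.8 CPM in Sertoli-like and 1.27, 0 and 10.3 CPM in Leydig-like cells. No stromal/myoid-like sum overlapped another class. Leydig-like against stromal/myoid-like cells gave -3.43 ± 0.38 in cattle (adjusted p = 0.000101) and -6.39 ± 0.57 in pig (adjusted p = 3.98e-05). Sertoli-like against stromal/myoid-like cells gave -4.62 ± 0.40 (adjusted p = 4.92e-06) and -6.49 ± 0.49 (adjusted p = 2.49e-06). These 4 calls held under every alternative tried.

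The lower TCF21 levels differed less. Sertoli-like and Leydig-like sums overlapped in both species, with a log2 fold change of -1.19 ± 0.36 in cattle (adjusted p = 0.0328) and -0.10 ± 0.78 in pig (adjusted p = 0.966). The cattle call was lost without cattle 2 or 3, at -1.28 and -1.33, with library size alone, at -0.98, with barcodes of at least 500 UMIs, at -0.85, and with no doublets left out, at -0.57. Of the cattle Leydig-like clusters, a small one of 131 cells, all from cattle 1, held 238 CPM, and the others 33.9 to 55.2 CPM. Empty droplets of cattle held 177, 246 and 314 CPM of TCF21, above every Sertoli-like and Leydig-like sum. Whether free RNA accounts for the TCF21 of those cells was not tested.

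LHX9, a LIM homeobox factor without which the gonad of the mouse does not form, followed the same order. Cattle stromal/myoid-like cells held 49.2, 34.2 and 73.9 CPM, Sertoli-like cells 4.55, 1.94 and 2.13 CPM and Leydig-like cells 2.88, 6.2 and 3.44 CPM. Pig stromal/myoid-like cells held 29.6, 37.1 and 57.8 CPM, Sertoli-like cells 0, 0.698 and 0 CPM and Leydig-like cells 2.53, 0 and 5.13 CPM. The stromal/myoid-like sums lay above all others in both species, and the other classes overlapped. Leydig-like against stromal/myoid-like cells gave a log2 fold change of -3.40 ± 0.41 in cattle (adjusted p = 0.000179) and -3.88 ± 0.66 in pig (adjusted p = 0.00156). Sertoli-like against stromal/myoid-like cells gave -4.32 ± 0.41 (adjusted p = 9.18e-06) and -6.04 ± 0.63 (adjusted p = 1.33e-05). These 4 calls held under every alternative tried, and Sertoli-like against Leydig-like cells passed in neither species, at -0.92 ± 0.49 (adjusted p = 0.21) and -2.16 ± 0.98 (adjusted p = 0.155).

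**Figure D3:**
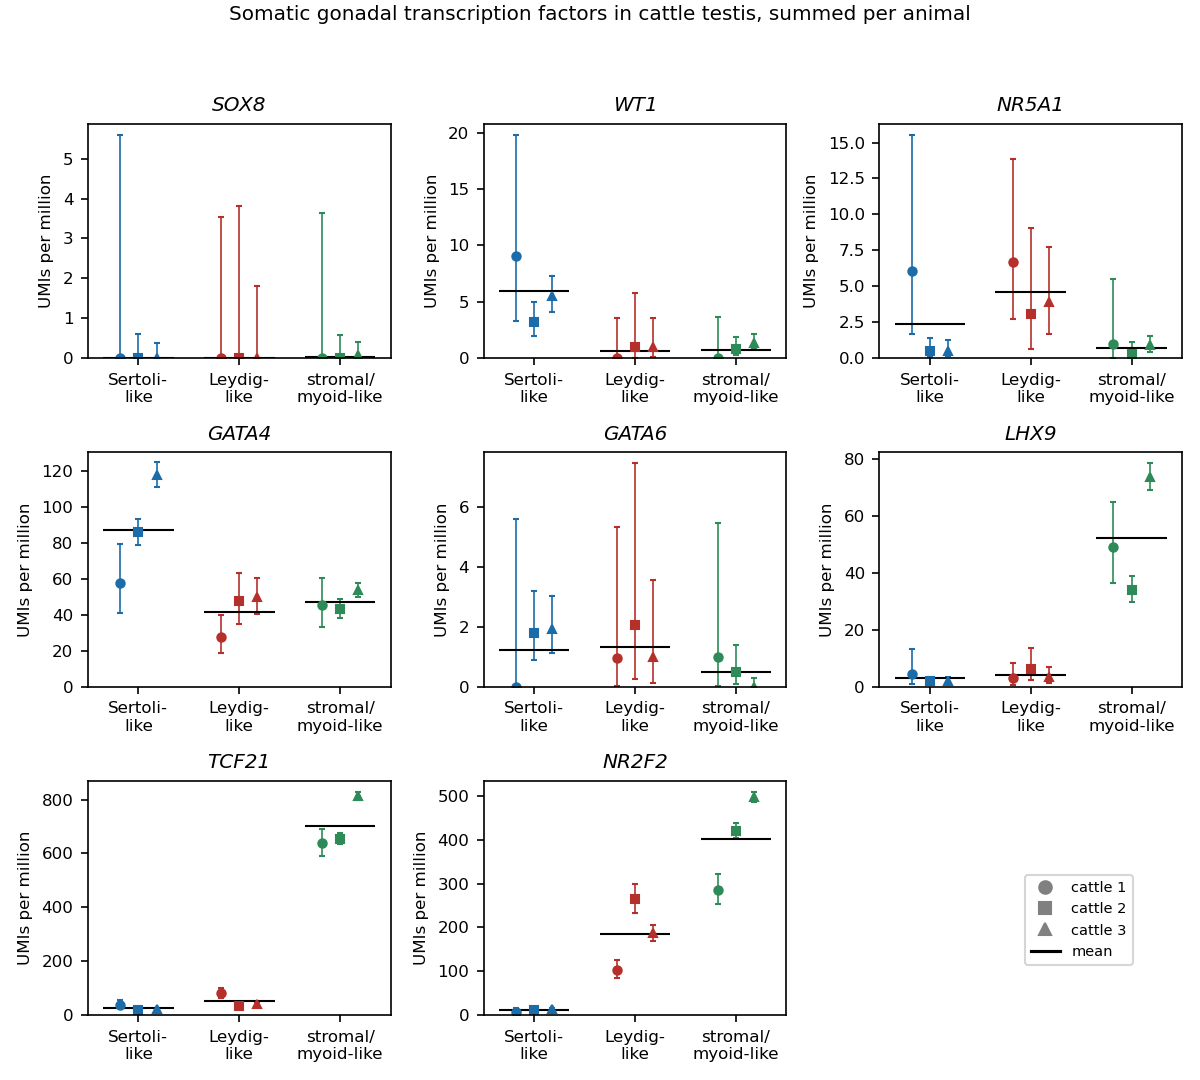
Levels of the 8 members listed in cattle are drawn in CPM for Sertoli-like, Leydig-like and stromal/myoid-like cells, with 1 point per animal (circle 1, square 2, triangle 3), exact 95% Poisson counting intervals and a line at the mean. TCF21, at 639 to 814 CPM in stromal/myoid-like cells, and NR2F2 and LHX9 stand highest there. WT1, NR5A1, GATA6 and SOX8 held at most 52 UMIs in any sum.

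Among the stromal/myoid-like cells of cattle, clusters with high smooth-muscle markers could be set against clusters without them. The contractile clusters had a mean log2 fold of the myoid markers of at least 2 over the median cluster. Non-contractile clusters came from cattle 2 and 3, with 1198 and 1229 cells, and only 11 such cells came from cattle 1, under the 20 cells a sum needed. TCF21 was at 635, 457 and 585 CPM in the contractile cells of cattle 1, 2 and 3 and at 1275 and 1295 CPM in the non-contractile cells of cattle 2 and 3. LHX9 was at 49.5, 11.5 and 28.8 CPM in contractile and 105 and 168 CPM in non-contractile cells. Neither gene overlapped between these groups, and the share of all genes without overlap was not counted.

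No member of the 6 tested passed the edgeR test between non-contractile and contractile cells, which called 1.42% of all genes over 5 sums. There were 3 members with an unadjusted p under 0.05 in that test, as had 1173 of all 11403 genes. DESeq2 called 2, TCF21 and LHX9, with 2.79% of genes. The log2 fold change was 1.05 ± 0.21 for TCF21 (adjusted p = 0.0687), 2.15 ± 0.49 for LHX9 (adjusted p = 0.0954) and 2.48 ± 0.96 for WT1 (adjusted p = 0.407). All 3 passed with a replicate block for the animal, at 1.12, 2.57 and 2.22, where 19.2% of genes did. Cattle 1 had a contractile sum alone, so the blocked fit compared the groups within cattle 2 and 3 only. It also left few sums to estimate the spread from. WT1 was sparse here, with a UMI in a mean of 0.122% of contractile and 0.41% of non-contractile cells. TCF21 and LHX9 passed without cattle 1, at 1.12 and 2.56, and with genes of at least 1 count, at 1.05 and 2.15. TCF21 also passed with library size alone, at 1.2, and LHX9 with no minimum number of cells, at 2.1. NR2F2 was at 289, 407 and 518 CPM in contractile and 487 and 481 CPM in non-contractile cells, a log2 fold change of 0.09 ± 0.28. The median over the members was 0.68, and over all genes -0.01. In pig all stromal/myoid-like clusters were contractile, so no such test was made, but LHX9 ranged from 9.18 CPM in one cluster to 76.5 CPM in another. With barcodes of at least 500 UMIs taken as cells, non-contractile clusters appeared in pig. There 2.89% of all genes passed, and of the members LHX9 alone did, at 2.59 ± 0.41 (adjusted p = 0.000322), while TCF21 was at -0.73 ± 0.38 (adjusted p = 0.571).

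**Figure D4:**
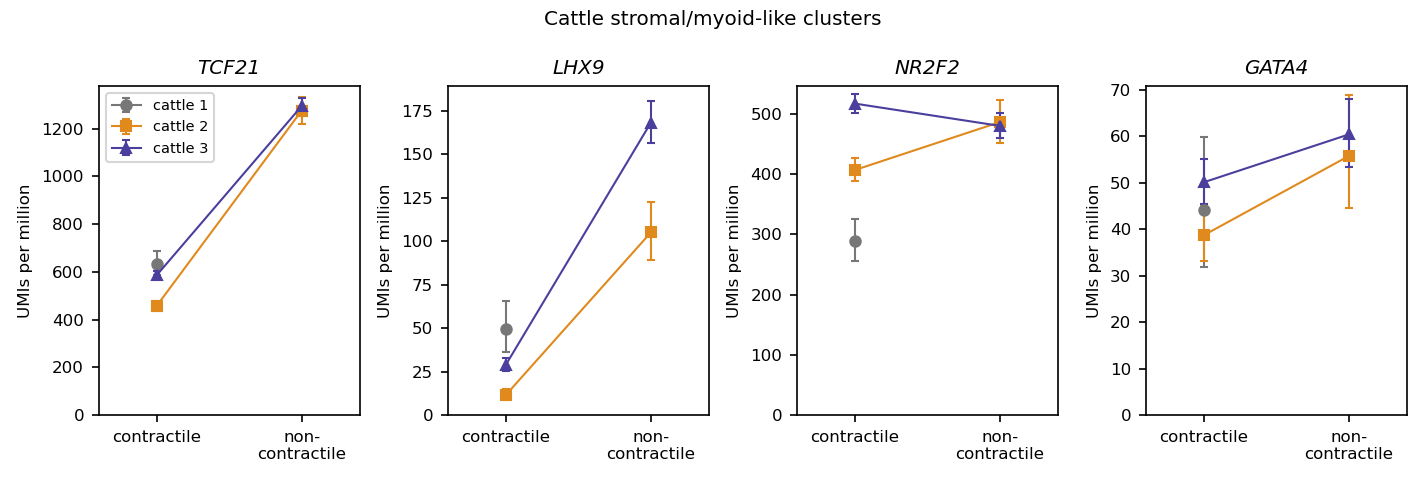
Levels of TCF21, LHX9, NR2F2 and GATA4 in the contractile and non-contractile stromal/myoid-like cells of cattle are drawn in CPM, with 1 point per animal and exact 95% Poisson counting intervals. TCF21 and LHX9 lie higher in the non-contractile cells of cattle 2 and 3 than in any contractile sum, and NR2F2 overlaps.

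The size of a fold change was compared between species over the 18 sums of both, for the 7 members tested in both. For Sertoli-like against Leydig-like cells 1 of 7 differed, against 8.27% of all shared genes. This was NR2F2, whose fold change in pig was lower than in cattle by a log2 difference of -2.40 ± 0.65 (adjusted p = 0.0202). It was lost without cattle 2 or 3, at -2.52 and -2.16, and without pig 2 or 3, at -1.54 and -1.90. For Leydig-like against stromal/myoid-like cells 1 of 7 differed, against 3.31% of genes. This was TCF21, at -2.74 ± 0.76 (adjusted p = 0.046), lost without cattle 1, 2 or 3, at -2.17, -3.00 and -3.07, and without pig 1 or 2, at -2.54 and -2.58. Cattle Leydig-like cells held 199 TCF21 UMIs and those of pig 5.

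For Sertoli-like against stromal/myoid-like cells 0 of 7 members passed by edgeR, the only tool run on it, against 8.82% of genes. An unadjusted p under 0.05 was found for 3 of these 7 members and for 2541 of all 11476 genes. TCF21 was at -1.82 ± 0.60 (adjusted p = 0.0587) and NR2F2 at -1.71 ± 0.65 (adjusted p = 0.107). Both passed with a replicate block for the animal, at -1.79 and -1.74, without cattle 1, at -1.68 and -1.83, and with library size alone, at -1.97 and -1.84, and NR2F2 also without pig 1, at -2.12. For WT1 the log2 difference in Sertoli-like against Leydig-like cells was -0.24 ± 0.88, and for GATA4 -0.10 ± 0.51.

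The members were also looked for together in single cells. Of 8064 stromal/myoid-like cattle cells, 5289 held a TCF21 UMI and 4558 an NR2F2 UMI, and 3413 held both. So 64.5% of the TCF21 cells held NR2F2, where 56.5% of all these cells did. Of 712 such pig cells 312 held both, and 73.2% of the TCF21 cells held NR2F2, where 64.7% of all did. In 3633 pig Sertoli-like cells 847 held both SOX9 and WT1, and 76.6% of the WT1 cells held SOX9, where 58.9% of all did. Deeper cells hold more UMIs of any gene, and these shares were not set against depth.

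A list of 22 other gonadal transcription factors and partners, of which 20 are listed in cattle and 21 in pig, was counted in the same fits. In Sertoli-like against Leydig-like cells 1 rose and 3 fell of 14 tested in cattle, and 4 rose and 3 fell of 16 in pig. Of all genes 22.4% and 16.9% were called there. In Sertoli-like against stromal/myoid-like cells 2 rose and 5 fell in cattle and 2 rose and 4 fell in pig, with 31.5% and 11.9% of all genes called. In Leydig-like against stromal/myoid-like cells 1 rose and 2 fell in cattle and 2 rose and 5 fell in pig, with 15.8% and 11% of all genes called. NR2F1, the paralogue of NR2F2, was lower in Sertoli-like than in Leydig-like cells in both species, by log2 fold changes of -4.87 ± 0.57 in cattle and -5.58 ± 0.47 in pig. Its Sertoli-like levels were 0, 1.78 and 2.02 CPM in cattle and 0.923, 1.1 and 0.901 CPM in pig, and its Leydig-like levels 24.0, 44.4 and 74.1 CPM and 64.5, 56.2 and 51.3 CPM. Against stromal/myoid-like cells it was lower by -4.00 ± 0.56 and -5.34 ± 0.47.

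GLI1, an effector and target of hedgehog signalling, was at 28.5, 32.0 and 32.9 CPM in the stromal/myoid-like cells of cattle and at 39.5, 31.2 and 55.9 CPM in those of pig, above every sum of the other classes. Sertoli-like against stromal/myoid-like cells gave a log2 fold change of -4.48 ± 0.52 in cattle and -5.98 ± 0.73 in pig, and Leydig-like cells -3.04 ± 0.51 and -3.41 ± 0.74. The Leydig-like calls were lost without cattle 3, at -2.65, and without pig 1 or 3, at -2.44 and -3.74. ZFPM1, a cofactor of the GATA factors, was higher in Sertoli-like than in stromal/myoid-like cells, by 1.07 ± 0.31 in cattle and 2.46 ± 0.70 in pig. The cattle call was lost without cattle 2 or 3, at 1.31 and 1.13, and with library size alone, at 0.95, and the pig call, which set 90 UMIs against 4, without pig 1, 2 or 3, at 2.36, 2.39 and 2.67. The pig call was also lost in 5 other settings, at 2.04 to 2.39.

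HES1, a target of Notch signalling, was lower in Leydig-like than in stromal/myoid-like cells in both species, by -3.05 ± 0.79 in cattle and -2.34 ± 0.34 in pig. Its cattle sums were small, with 4 UMIs in all Leydig-like cells, and the call was lost without cattle 2 or 3, at -2.99 and -3.64. The pig call was lost with barcodes of at least 500 UMIs, at -2.44. NR4A1, an early-response receptor that also acts on steroid genes, was higher in Sertoli-like than in Leydig-like cells by 2.0 ± 0.48 in cattle and 2.04 ± 0.48 in pig, lost without cattle 3 at 1.67 and, in pig, with barcodes of at least 500 UMIs at 1.26. The summed genes that tissue digestion is known to switch on moved with it, at 2690 to 6496 CPM in Sertoli-like and 272 to 762 CPM in Leydig-like cells of cattle. In pig they were at 3145 to 4524 CPM and 589 to 1176 CPM. Their part in the NR4A1 difference was not tested.

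The stretch of 250 bases before the annotated start of each member was read from the pig genome (Sscrofa11.1, RefSeq annotation) and searched on both strands for the E-box CANNTG, the GATA site AGATAA, the SOX core ACAAT and the nuclear receptor site AGGTCA. The promoters of SOX9, higher in Sertoli-like cells, and of TCF21, LHX9 and NR2F2, lower there than in stromal/myoid-like cells, are shown 5′ to 3′ on the strand of the gene, with matches in capitals.
SOX9: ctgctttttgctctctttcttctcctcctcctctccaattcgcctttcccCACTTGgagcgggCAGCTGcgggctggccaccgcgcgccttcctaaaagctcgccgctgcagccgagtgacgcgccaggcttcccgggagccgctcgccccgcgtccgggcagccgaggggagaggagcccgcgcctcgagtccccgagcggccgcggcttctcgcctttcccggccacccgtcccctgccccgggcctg
TCF21: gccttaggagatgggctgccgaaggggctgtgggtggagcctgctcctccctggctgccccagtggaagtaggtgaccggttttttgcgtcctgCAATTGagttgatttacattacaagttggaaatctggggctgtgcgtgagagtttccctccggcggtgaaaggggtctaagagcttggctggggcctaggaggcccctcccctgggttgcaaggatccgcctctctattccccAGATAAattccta
LHX9: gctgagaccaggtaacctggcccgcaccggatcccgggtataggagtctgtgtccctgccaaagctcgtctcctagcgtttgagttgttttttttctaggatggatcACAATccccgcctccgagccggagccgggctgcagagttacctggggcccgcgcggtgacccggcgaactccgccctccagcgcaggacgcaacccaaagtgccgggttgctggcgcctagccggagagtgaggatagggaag
NR2F2: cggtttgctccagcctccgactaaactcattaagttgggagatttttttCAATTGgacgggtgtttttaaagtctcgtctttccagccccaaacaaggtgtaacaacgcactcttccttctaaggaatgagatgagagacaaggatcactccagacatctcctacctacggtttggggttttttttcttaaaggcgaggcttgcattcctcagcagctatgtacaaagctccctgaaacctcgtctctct
SOX9 lies on the minus strand with its window at chr12:8647316-8647565, TCF21 on the minus strand at chr1:29978274-29978523, LHX9 on the plus strand at chr10:20742073-20742322 and NR2F2 on the minus strand at chr7:83090251-83090500. SOX9 held 2 E-boxes, TCF21 an E-box and a GATA site, LHX9 a SOX core and NR2F2 an E-box. Of 19559 pig promoters of this length 61.9% held an E-box, 8.08% a GATA site, 20.6% a SOX core and 12.3% the nuclear receptor site. No member held the nuclear receptor site in this window, and GATA4 held 2 GATA sites. A match of letters is a description and no evidence of binding.

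The remaining cell classes were looked at for the same genes. NR2F2 was at 177, 203 and 281 CPM in cattle endothelial-like cells and at 159 and 194 CPM in those of pig 2 and 3. WT1 was at 161 and 198 CPM in the endothelial-like cells of pig 2 and pig 3, from 328 and 529 UMIs. In both animals this lay above the Sertoli-like cells, at 133 and 115 CPM. The 18 and 10 pericyte-like cells of pig 2 and 3, under the 20 that a sum needed, held 114 and 176 CPM of WT1. Of 691 pig endothelial-like cells 397 held a WT1 UMI, 377 an NR2F2 UMI and 240 both. SOX9 was at 245, 167 and 17.3 CPM in the lymphocyte-like cells of pig, of which pig 1 and 2 gave 21 and 23 cells. Those of pig 1 summed to 24473 UMIs. The lymphocyte-like cells of pig also held Sertoli markers at 121 to 2155 CPM, against 3745 to 4494 CPM in Sertoli-like cells. Whether Sertoli RNA or cells account for this SOX9 was not tested.

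**Figure D5:**
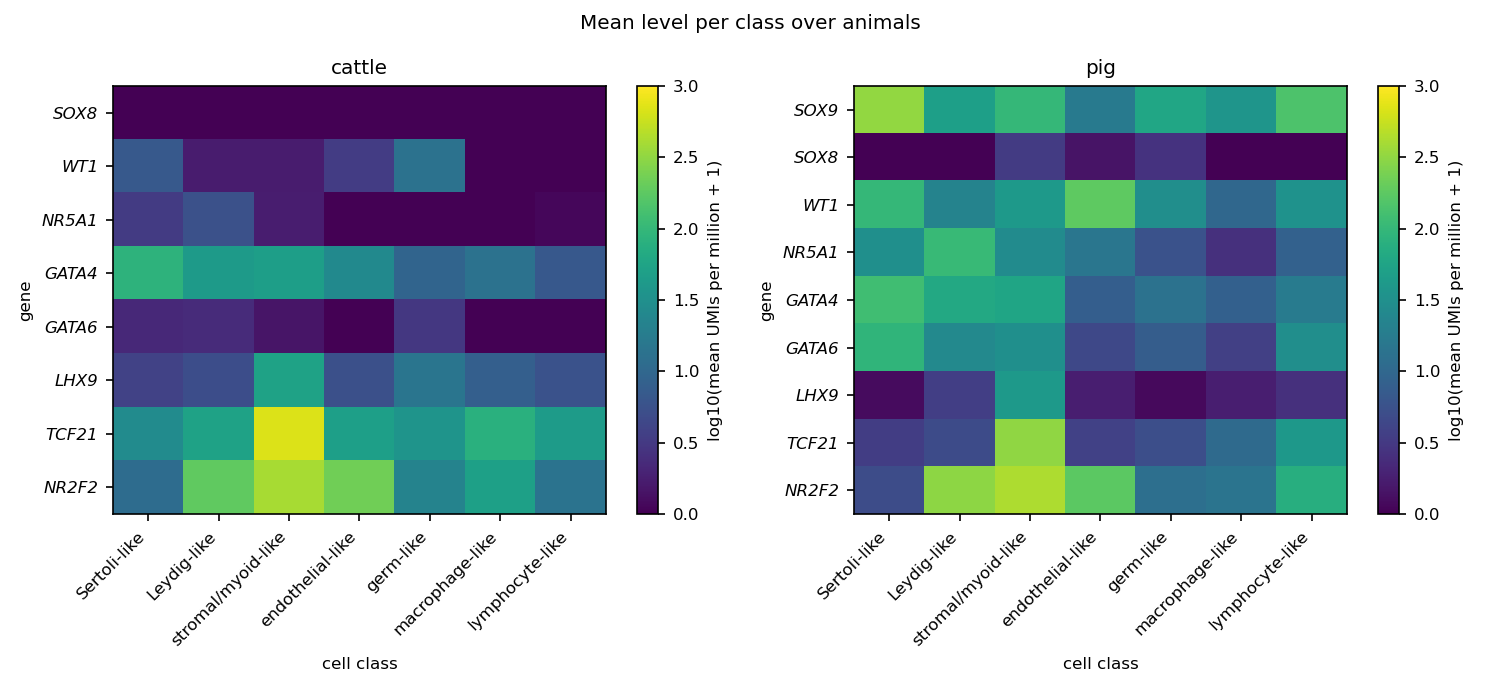
Mean levels of the members over animals are drawn as a grid of genes by cell classes for cattle and pig, with colour for log10(CPM + 1) and only sums of at least 20 cells. WT1 is bright in the endothelial-like cells of pig as well as in its Sertoli-like cells, and TCF21 in the stromal/myoid-like cells of both species.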

How the data were processed

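Single-cell libraries from the testes of 3 cattle and 3 pigs were used, 1 per animal. The authors counted UMIs per gene and barcode with Cell Ranger (version 2.1.0 in the submitters' processing notes, whereas the headers of the 3 pig matrices name software version 3.0.2) on ARS-UCD1.2 or Sscrofa11.1, and these counts were deposited raw, without normalization. In each species 2 libraries, those numbered 2 and 3 here and the deeper ones, share a testis number in the labels. Their labels end in different tags, whose meaning is not stated. Every library was taken as 1 animal, since the study reports 3 different males of each species.

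A barcode was a cell when its UMIs reached a 10th of the 99th percentile among the 3000 deepest barcodes of its library, with at least 200 genes. The cells with the highest Scrublet scores, 0.8% per 1000 cells, were left out. Leiden clustering at resolution 1 was run in scanpy 1.11.5 for each species, from 15 neighbours on 30 principal components of 2000 variable genes. Members and partners were kept out of the variable genes and of the markers. A cluster took a name from at least 3 of its markers, each at least 2-fold over the median cluster. The conditions of naming, and the joining of stromal with myoid cells, were set with the clusters in view, so that the planned stromal against myoid comparison became one of non-contractile against contractile clusters.

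UMI counts were summed per animal and class over at least 20 cells. Genes reaching 10 counts in all sums together entered the edgeR 4.0.16 quasi-likelihood test (R 4.3.3, TMM), with Benjamini-Hochberg adjustment over all genes at 0.05. The standard error is the log2 fold change over the root of the F statistic. Species were compared as an interaction over shared symbols, 11476 genes. On counts simulated for Sertoli-like against stromal/myoid-like cells, 9% of 2-fold and 95% of 8-fold changes were recovered in cattle over 12428 genes, and 10% and 96% in pig over 12248, with 3 and 4 false calls. The simulated sums held no effect of the animal. Changed genes were drawn from those with an expected count of at least 1 in the smallest sum, so sparser genes are not covered. Sums of 1 animal share its library, and their deviations from the class means correlated at 0.37 to 0.68 in cattle and 0.24 to 0.47 in pig, so a replicate block for the animal was tried. Further alternatives were DESeq2 1.42.0, library size alone, other limits on cells, counts and doublets, another resolution, leaving out dividing clusters, members allowed among the variable genes, and leaving out each animal. Leaving out a cattle cluster and 2 pig clusters that hold markers of another class or lead with stress genes was added after seeing the data, as was the species difference with library size alone.

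The members, the partner list and the markers were chosen with earlier results of these data known. All members were named in every comparison, and of the partners those called the same way in both species. Counting intervals cover counting error only. Where the sums of a member did not overlap between classes, the share of all genes that did the same was not counted. Promoters were read from the RefSeq annotation of Sscrofa11.1. No cattle coordinates were used here. Some of the genes most like a member are not reported here.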

Additional observations from a re-analysis of the deposited data

Results flagged for a closer look

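The NR2F2 fold change of Sertoli-like against Leydig-like cells differed between the species in the test of the interaction, by a log2 difference of -2.40 ± 0.65 (pig minus cattle, adjusted p = 0.0202 by edgeR). The Sertoli-like level of NR2F2 was below the Leydig-like level in 3 of 3 animals of each species. The call was lost without cattle 2 or 3, at -2.52 and -2.16, and without pig 2 or 3, at -1.54 and -1.90.

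The TCF21 fold change of Leydig-like against stromal/myoid-like cells differed by -2.74 ± 0.76 (pig minus cattle, adjusted p = 0.046 by edgeR), with the Leydig-like level below the stromal/myoid-like level in 3 of 3 animals of each species. That call was lost without cattle 1, 2 or 3, at -2.17, -3.00 and -3.07, and without pig 1 or 2, at -2.54 and -2.58. Free RNA of cattle, as measured in empty droplets, held 177 to 314 CPM of TCF21 and 64.0 to 160 CPM of NR2F2. The pig tables hold no empty droplets, so the level of free RNA could not be set beside the pig values, and its part in both species differences was not tested.

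WT1 in the endothelial-like cells of pig, a class outside the comparisons, was at a mean of 179 CPM over the 2 animals with at least 20 such cells. The few pericyte-like cells of the same animals, 18 and 10, held 114 and 176 CPM. The endothelial-like cells were picked by their counting bounds. In each of these animals their lower bound lay above the upper bound of the Sertoli-like, Leydig-like and stromal/myoid-like cells. That was the rule for flagging a class, so it adds no support. Summed Sertoli markers in the endothelial-like cells of pig 2 and 3 were at 296 and 54.2 CPM, against 3745 to 4494 CPM in Sertoli-like cells.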

How the results depend on the processing

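Fold changes of the members and the named partners were recomputed under each alternative. Of these values, 939 kept their direction and their side of the threshold, 77 fell below it, 30 passed it and 30 turned in direction. All that turned belonged to differences that did not pass the test. The causes of the changes below were not tested. Leaving out an animal also lowers the number of sums in the fit, so its own values and the loss of sums cannot be told apart.

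With a replicate block for the animal the members called were 5 for Leydig-like against stromal/myoid-like and 5 for Sertoli-like against Leydig-like cells in cattle, 3 for non-contractile against contractile cells and 2 for the species difference in Sertoli-like against stromal/myoid-like cells. The shares of all genes called there were 35.3%, 38.9%, 19.2% and 22%, in that order. The genes called then numbered 4469 and 2391 for Leydig-like against stromal/myoid-like cells of cattle and pig (2004 and 1383 without the block), 4915 and 3296 for Sertoli-like against Leydig-like cells (2830 and 2125), 6783 and 2749 for Sertoli-like against stromal/myoid-like cells (3985 and 1486) and 2191 for non-contractile cells (162). They were 1195, 1953 and 2524 for the species differences in Leydig-like against stromal/myoid-like, Sertoli-like against Leydig-like and Sertoli-like against stromal/myoid-like cells (380, 949 and 1012). GATA6 in Leydig-like against stromal/myoid-like pig cells came to 0.026 and NR2F2 in non-contractile cattle cells to -0.12. The block changed no other call of a member than those given with the results.

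For Sertoli-like against stromal/myoid-like pig cells 7 members were called (11.9% of genes), and 3 at clustering resolution 2 (11.2%). With library size alone 4 were called (11.7%), as with no doublets left out (10.4%) and without the clusters that hold markers of another class (11.5%). In that last setting and at clustering resolution 2 pig 1 had 13 stromal/myoid-like cells, under the 20 that a sum needed, and its sum was dropped. For non-contractile cells 0 members were called, 2 with DESeq2, 2 with at least 1 count, 1 with library size alone and 1 with no minimum of cells. The genes called were 318 with DESeq2 (2.79%), 396 with at least 1 count (2.65%), 150 with library size alone (1.32%) and 297 with no minimum of cells (2.6%). They were 61 with members and partners among the variable genes and 105 with no doublets left out. The species difference in Sertoli-like against stromal/myoid-like cells gave 2 members with library size alone, where 9.73% of genes were called.

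Leaving out 1 animal gave 490 to 2755 genes for Leydig-like against stromal/myoid-like cattle cells and 513 to 879 in pig, 1003 to 3328 and 896 to 1407 for Sertoli-like against Leydig-like cells, 1584 to 5091 and 671 to 1190 for Sertoli-like against stromal/myoid-like cells and 0 to 359 for non-contractile cells, where edgeR called 0 without cattle 2 or 3. The species differences gave 129 to 447, 514 to 1097 and 377 to 1281 genes, in the order above. The members called ranged from 1 to 4 for Sertoli-like against Leydig-like cattle cells, from 3 to 6 in cattle and 4 to 6 in pig for Sertoli-like against stromal/myoid-like cells, from 0 to 2 for non-contractile cells, and from 0 to 1, 0 to 1 and 0 to 2 for the species differences. In the same order the shares of all genes called were 8.24% to 26.7%, 13% to 40.8%, 5.54% to 9.69% and 0% to 3.19%. For the species differences they were 1.16% to 3.91%, 4.63% to 9.59% and 3.4% to 11.2%.

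Log2 fold changes that turned in direction without 1 animal ranged, for Leydig-like against stromal/myoid-like cells, from -0.39 to 0.10 for WT1 in cattle and, in pig, from -0.18 to 0.63 for GATA4, -0.42 to 0.32 for GATA6 and -0.66 to 0.15 for NR2F2. They ranged from -0.22 to 0.40 for cattle GATA6 and from -1.08 to 1.78 for pig TCF21 in Sertoli-like against Leydig-like cells, from -0.17 to 2.07 for cattle NR5A1 in Sertoli-like against stromal/myoid-like cells and from -0.12 to 0.33 for NR2F2 in non-contractile cells. Species differences that turned ranged from -0.43 to 0.48 for GATA4 and -0.76 to 0.18 for LHX9 in Leydig-like against stromal/myoid-like cells, from -0.66 to 0.36 for WT1 and -0.22 to 0.63 for GATA4 in Sertoli-like against Leydig-like cells, and from -1.03 to 0.83 for NR5A1, -0.14 to 0.72 for GATA4 and -2.16 to 0.27 for GATA6 in Sertoli-like against stromal/myoid-like cells. Under the remaining settings, GATA4 in Leydig-like against stromal/myoid-like cells came to -0.18 in cattle with library size alone and to -0.062 in pig with no doublets left out. With barcodes of at least 500 UMIs the same comparison gave 0.74 for SOX9 and 0.72 for GATA6 in pig. GATA6 in Sertoli-like against Leydig-like cattle cells came to -0.018 with DESeq2 and -0.060 with at least 500 UMIs. TCF21 in that comparison in pig came to 0.040 with members among the variable genes and 0.12 with no doublets left out, and NR2F2 in non-contractile cells to -0.019 with no minimum of cells.

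Library size alone moved the median of all genes by -0.30 and the share of called genes that were higher from 46.0% to 26.7% for Leydig-like against stromal/myoid-like cattle cells. For Sertoli-like against Leydig-like pig cells the median moved by -0.17 and the share from 53.2% to 42.1%, for Sertoli-like against stromal/myoid-like pig cells by -0.25 and from 31.5% to 17.9%, and for non-contractile cells by 0.16 and from 35.2% to 46.7%. SOX8 in both species and WT1, NR5A1 and GATA6 in cattle rest on sums of 0 to 52 UMIs, and LHX9 in pig on sums of 0 to 59. Sertoli-like cells summed to 16235947 UMIs in cattle and 12218612 in pig, and Leydig-like cells to 4046684 and 1446687. The gene models of the species differ, and the causes of the low counts were not tested. Thinning the cells moved 30 of 51 mean shares of cells with a UMI by more than their SD. With 1 instead of 10 CPM added, the pair of genes most like a member changed for 7 of 9 members.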

Other observations

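For each member the 2 genes whose levels followed it most closely over 21 class sums of cattle and 20 of pig were listed, by the lower of the correlations in the species, on log2(CPM + 10). The sums share libraries and classes, and the values are a description. LHX9 was followed by WNT2B, a secreted Wnt ligand (r = 0.90 in cattle and 0.97 in pig). TCF21 was followed by IGFBP6, a binding protein of insulin-like growth factors (0.91 and 0.92), and by the smooth-muscle actin ACTA2 (0.92 and 0.90). ACTA2 is among the myoid markers that named the stromal/myoid-like cells, where TCF21 was highest, so its r adds no support. Among the stromal/myoid-like cells of cattle, TCF21 was higher in the non-contractile sums than in the contractile ones. NR2F2 was followed by EHD2 (0.86 and 0.94) and the matrix protease MMP2 (0.79 and 0.87). NR5A1 was followed by RGN (0.78 and 0.81) and TIMP2 (0.84 and 0.77), and GATA4 by ZNF771 (0.80 and 0.80). WT1 was followed by VASH2 (0.72 and 0.71) and PRKD1 (0.71 and 0.82), and GATA6 by TBC1D31 (0.72 and 0.74) and CELSR2 (0.71 and 0.75). SOX9, in pig alone, was followed by TAF7L (0.956) and COL9A2 (0.955). Only LHX9 and NR2F2 kept both genes with 1 CPM added, and SOX8 had too few UMIs for its list to be read. NR5A1 and GATA6 had 46 and 50 UMIs over the 21 cattle sums, so their cattle correlations rest on few counts.

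A germ-like cluster of 340 pig cells held 279 CPM of SOX9, 85.2 CPM of WT1 and 52.6 CPM of GATA4. The germ-like cells of pig also held Sertoli markers, at 39.6 to 708 CPM. Whether Sertoli RNA or cells account for the levels in this cluster was not tested. In cattle germ-like cells WT1 was at 30.7, 3.82 and 3.22 CPM, from 9, 5 and 12 UMIs.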
